A study of Mus musculus with 6 samples.

Results

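The 10 genes described here encode MAX and MLX and the proteins that pair with them: the activators Mycn and Mycl, the MXD family repressors Mxd1, Mxd3, Mxd4 and Mxi1, and the large repressors Mnt and Mga. They were chosen by name, and every probe set that the platform annotation gives to 1 of these symbols alone was taken. That gave 28 of the 34945 probe sets with a single symbol, and 10 of the 18193 genes measured. MycGFP positive cells were set against MycGFP negative cells, with 3 arrays each, numbered 1 to 3. Both groups were CD25+ splenocytes with the genotype Notch1[delta]E mycGFP on C57BL/6, from mice aged 12 weeks, taken 4 weeks after transplantation into congenic recipients and sorted by mCherry and GFP. Notch1[delta]E is an activated NOTCH1 receptor that causes T-cell acute lymphoblastic leukaemia (T-ALL), and the GFP of the mice reports the MYC protein. The design describes 3 independent leukaemias, each sorted by GFP. The genotype label of both groups gives the Notch1 transgene and the reporter. Whether every sorted cell carried them, or some came from the recipients, was not tested. The sources used here do not name the promoter that drives Notch1[delta]E.

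MYC family proteins activate transcription as pairs with MAX, which binds the E-box, a short DNA motif. MXD proteins, MNT and MGA compete for MAX and bind the same motif, and MXD proteins and MNT bring SIN3 and histone deacetylases that repress the genes there. MLX is a relative of MAX that pairs with some MXD proteins, with MNT and with the MONDO factors, which sense glucose metabolites. In many tissues MYC falls and MXD genes come on as cells leave the cycle and mature, while Mxd3 is known as the family member of dividing cells.

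The E-box that all these pairs bind also occurs in the members' own promoter windows, which are shown for that reason. In the RefSeq promoter table of build GRCm38.p6, each window holds 250 bases before and 50 after a gene's start. All 10 genes matched, with 12 windows, since Mxi1 has 3 starts. The letters CACGTG, which read the same on both strands, occurred in the windows of 4 members. Of all 32851 windows in the table, 7.15% held them. Capitals mark the motif in these stretches, read on the gene's strand, of chr5:34187912-34187941 (minus strand), chr11:74830789-74830818 (plus), chr11:101087238-101087267 (plus) and chr12:76962234-76962263 (minus).
Mxd4: gggctgggccacCACGTGctgttgctaagc
Mnt: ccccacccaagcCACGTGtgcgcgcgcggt
Mlx: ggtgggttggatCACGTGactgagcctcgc
Max: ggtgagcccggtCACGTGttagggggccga
The motif's first base lay 219 bases before the start in Mxd4, 123 in Mnt, 40 in Mlx and 3 in Max. The windows of Mxd1, Mxd3, the 3 Mxi1 starts, Mycn, Mycl and Mga did not hold these letters. A related motif, CACGCG on either strand, was in the windows of Mycl and Mga and in 9.27% of all windows. The whole stretch of 250 bases before the Mxd4 start, chr5:34187711-34187960 on the minus strand, is given because Mxd4 was the member called lower in the test over all genes below.
Mxd4 upstream: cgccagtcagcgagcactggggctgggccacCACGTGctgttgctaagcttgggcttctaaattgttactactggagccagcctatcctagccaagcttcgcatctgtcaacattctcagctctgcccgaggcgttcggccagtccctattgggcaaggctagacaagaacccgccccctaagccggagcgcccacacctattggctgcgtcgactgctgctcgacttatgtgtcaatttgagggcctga
These windows only describe sequence, and binding was not measured in this series.

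Array medians were 30.5 to 31.4 on MycGFP positive and 31.7 to 32.7 on MycGFP negative arrays, and a probe set near this level may be background. Of 8 markers of T cells and this leukaemia, 7 were measured, and all 7 lay above the median on every array, Cd3e, Il2ra, Notch1 and Ptcra among them. Summed myeloid markers, 7 of 8 measured, came to 742, 2641 and 182 on positive arrays 1, 2 and 3, against 1017, 10434 and 249 on negative arrays 1, 2 and 3, so number 2 stood out in both groups. Summed markers of stroma and endothelium, 4 of 4 measured, came to 250 to 354 on positive and 390 to 929 on negative arrays without overlap, with 1 of the 4, Pecam1, above the median on every array at 259 ± 42.7 and 518 ± 156 (SD, n = 3 each). Pecam1 made up most of each sum. Col3a1 and Cdh5 lay under the median on all 6 arrays, at 7.83 to 9.38 and 5.85 to 7.44. Col1a1 overlapped between the groups, at 14.8 to 33.8 on positive and 16.2 to 244 on negative arrays. Summed B cell, NK cell and erythroid markers overlapped between the groups. None of the markers measured passed the test over all genes in either direction. With the array number as a block 3 markers were lower in positive cells, the B cell gene Cd79b, the myeloid gene S100a9 and Pecam1, at log2 differences of -1.28, -1.47 and -0.97 (limma adjusted p = 0.0452, 0.0482 and 0.0416). RNA quality, read as the Gapdh ratio of 3' to 5' probe sets, was 1.48 to 1.58 on positive and 1.58 to 1.89 on negative arrays. The same ratio of actin was 1.72 to 1.85 on positive and 1.54 to 1.87 on negative arrays, with overlap, and was lowest on negative array 1, where that of Gapdh was highest. The part of these cells and of RNA quality in the results below was not tested. In bulk samples, fewer cells that express a gene and less of its RNA per cell cannot be told apart. Each sample was 5 ng of RNA, so the values are relative to that RNA, and total RNA per cell was not measured.

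Each member was first read by its brightest probe set, and by these the MXD repressors Mxd1, Mxd4 and Mxi1 differed most between the sorted cells. Mxd4 fell in MycGFP positive cells. Mxd1 and Mxi1 lay lower on every positive than on every negative array without passing the test over all genes, and Mxd3 was the only member with a difference above 0. Transcripts of MAX itself, MLX, MYCN and MYCL had log2 differences of -0.24 to -0.06. In the test over all genes (limma, adjusted p under 0.05), 1 of 10 members was lower and none higher, against 1.51% of all genes lower, 4.62% higher and 6.13% called in either direction. With the array number as a block, 2 members were lower, Mxd1 and Mxd4, and none higher, against 1.95% of all genes lower and 7.70% called in either direction. At an unadjusted p under 0.05, 3 members were lower and none higher, and 7.35% of all genes were lower. The positive arrays all lay below the negative ones for 3 members, Mxd1, Mxd4 and Mxi1, and for 11.2% of all genes. The reverse held for Mxd3 and for 17.0% of all genes. The median log2 difference, positive minus negative, was -0.26 over the 10 members and 0.01 over all genes.

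**Figure D1:**
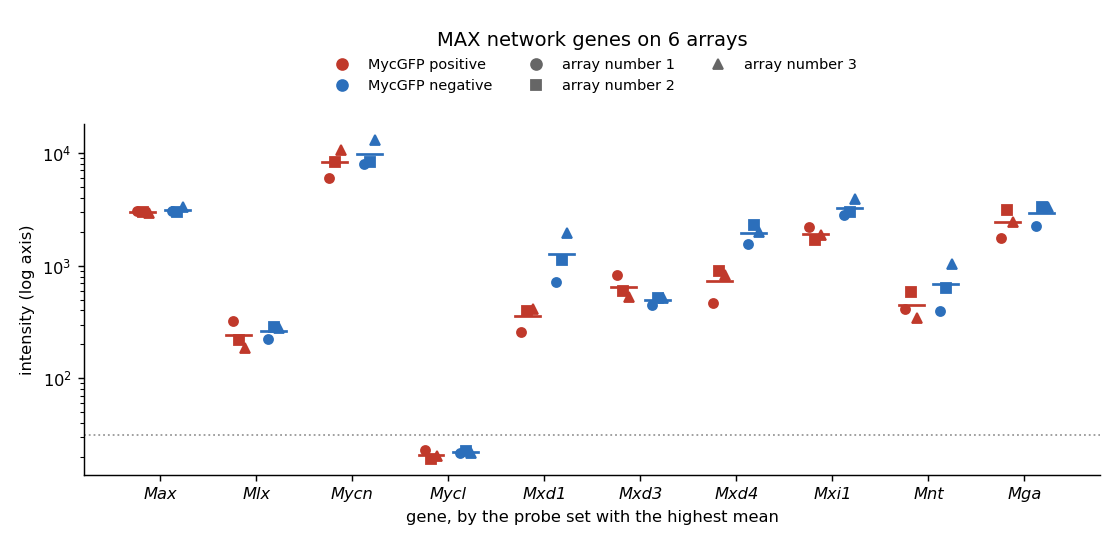
Intensity (log axis) of each of the 10 genes on 6 arrays, read by its brightest probe set, with MycGFP positive arrays (red) left of MycGFP negative arrays (blue), symbols for the array number and bars at the group means. Mxd1, Mxd4 and Mxi1 have all 3 red points below all 3 blue points, and Mycl lies under the array median (dotted line); heights are not comparable between genes, since probe sets differ in response.

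Mxd4, a small MXD protein that pairs with MAX to repress E-box genes and is linked to differentiation, fell 2.75-fold. The brightest of its 4 probe sets read 466, 892 and 826 on positive arrays 1, 2 and 3, against 1571, 2304 and 1983 on negative arrays 1, 2 and 3. The means were 728 ± 229 in positive and 1953 ± 367 in negative cells (SD, n = 3 each). The groups did not overlap, and positive array 1 was the lowest of all 6. That is a log2 difference of -1.46 (SE 0.29, limma adjusted p = 0.0438 over all genes). With the array number as a block the adjusted p was 0.0290. The call was lost when any 1 of the 6 arrays was left out, at limma adjusted p of 0.0567 to 0.127, while the log2 difference stayed between -1.64 and -1.17.

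The other Mxd4 probe sets were fitted together with all named probe sets (limma). In that test 3 of the 28 member probe sets were lower and none higher, against 2.16% of all probe sets lower, 4.76% higher and 6.92% called in either direction. At an unadjusted p under 0.05, 8 member probe sets were lower, all of Mxd1, Mxd4 or Mxi1, against 8.49% of all probe sets. The 3 called were all of Mxd4 and so are not separate observations of the network. Probe set 1434379_at read 143, 290 and 287 on positive arrays, against 574, 710 and 706 on negative arrays, a log2 difference of -1.53 (SE 0.30, limma adjusted p = 0.0396). A dimmer one, 1422574_at, read 75.4, 76.7 and 84.0 on positive arrays, against 156, 154 and 155 on negative arrays. Its groups were the tightest of the Mxd4 probe sets, and its log2 difference was -0.98 (SE 0.12, limma adjusted p = 0.0146). Without 1 array its adjusted p ran from 0.0272 to 0.0665 and missed the threshold without positive array 2 (0.0665), positive array 3 (0.0545) or negative array 2 (0.0531). The last, 1422575_at, lay under the array median on all 6 arrays, at 15.7 to 23.0 on positive and 20.5 to 23.6 on negative arrays, and its groups overlapped. Compared within array numbers, the brightest probe set was 3.37-fold, 2.58-fold and 2.40-fold lower in positive cells for numbers 1, 2 and 3.

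Mxd1, the founding MXD protein, which is induced as myeloid and epithelial cells differentiate, had the largest difference of the members by their brightest probe sets. That probe set of Mxd1 probe set, 1455104_at, read 257, 398 and 410 on positive arrays 1, 2 and 3, against 709, 1120 and 1960 on negative arrays 1, 2 and 3. Every positive value lay under every negative value, and the negative arrays spread 2.76-fold. The means were 355 ± 84.7 in positive and 1263 ± 637 in negative cells (SD, n = 3 each). The log2 difference was -1.74 (SE 0.40, limma adjusted p = 0.0602). Mxd1 thus missed the threshold over all genes, but passed with the array number as a block (limma adjusted p = 0.0300) and without negative array 1 (limma adjusted p = 0.0342). It also passed with a filter on low levels (limma adjusted p = 0.0393) and with array weights (0.0444), which made 4 of the 17 alternative settings. Within numbers 1, 2 and 3 it was 2.76-fold, 2.81-fold and 4.78-fold lower in positive cells. On number 3, which had the largest of these, the summed myeloid markers were lowest in both groups, at 182 on the positive and 249 on the negative array. Of the 7 markers, Csf1r and Itgam were instead highest on negative array 3: they read 18.6 and 9.05 on positive array 3, against 89.4 and 13.6 on negative array 3. The B cell sum was also highest on negative array 3, at 757, and Cd79b alone read 645 there. Of the other B cell markers, Pax5 was highest on that array too, at 29.4, while Cd79a, Ms4a1 and Ebf1 were highest on other arrays. The part of these cells in the Mxd1 values was not tested.

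The remaining Mxd1 probe sets had smaller differences of the same sign. Probe set 1434830_at read 271, 379 and 494 on positive arrays, against 430, 803 and 900 on negative arrays, so positive array 3 overlapped negative array 1. Its log2 difference was -0.87 (SE 0.35, limma adjusted p = 0.212), and 0.0469 with the array number as a block. The dimmer 1422002_at read 47.1, 43.7 and 50.1 on positive arrays, against 67.7, 62.5 and 59.7 on negative arrays, without overlap. Its log2 difference was -0.43 (SE 0.13, limma adjusted p = 0.110).

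Mxi1, also called MXD2, is a MAX partner that recruits SIN3 and opposes MYC. Its brighter probe set, 1450376_at, read 2189, 1673 and 1870 on positive arrays 1, 2 and 3, against 2802, 2992 and 3905 on negative arrays 1, 2 and 3. The groups did not overlap, and the means were 1911 ± 260 and 3233 ± 590 in positive and negative cells (SD, n = 3 each). Its log2 difference of -0.75 (SE 0.18, 95% interval -1.20 to -0.30) missed the threshold over all genes (limma adjusted p = 0.0710, and 0.0922 with the block). When all probe sets of a gene were averaged Mxi1 passed, at a log2 difference of -0.67 (limma adjusted p = 0.0285). The same averaging gave Mxd1 a log2 difference of -1.01 (limma adjusted p = 0.0581) and Mxd3 one of 1.09 (0.184), and neither passed. The second probe set, 1425732_a_at, read 144, 154 and 196 on positive arrays, against 311, 229 and 209 on negative arrays. Those groups were separated by a small gap, with a log2 difference of -0.59 (SE 0.21, limma adjusted p = 0.161). The array numbers ordered the 2 probe sets differently: the pair numbered 1 had the smallest fold on the first, 1.28-fold, and the largest on the second, 2.16-fold lower in positive cells.

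**Figure D2:**
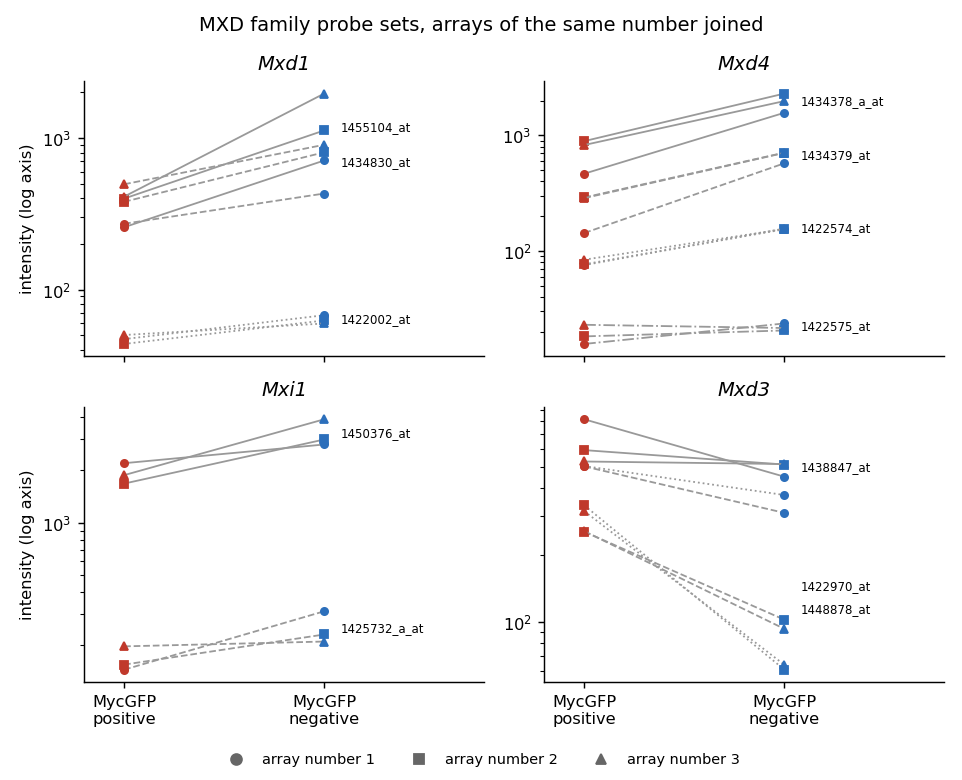
Intensity (log axis) of each probe set of Mxd1, Mxd4, Mxi1 and Mxd3 in MycGFP positive (left) and MycGFP negative (right) cells, with arrays of the same number joined and line styles for the probe sets. Lines of Mxd1 and Mxi1 and of the 3 brighter Mxd4 probe sets are lower on the positive side for every number, and those of Mxd3 are higher there.

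Mxd3, the MXD protein found in proliferating cells, had values on the other side. The brightest of its 3 probe sets, 1438847_at, read 818, 594 and 528 on positive arrays 1, 2 and 3, against 451, 512 and 514 on negative arrays 1, 2 and 3. Positive array 1 stood above the rest, and the gap between the groups was small. The log2 difference was 0.37 (SE 0.19, 95% interval -0.10 to 0.84, limma adjusted p = 0.341), and 0.19 without positive array 1 (0.594).

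Its other probe sets had larger differences and larger spread. Probe set 1448878_at read 504, 335 and 315 on positive arrays, against 373, 60.9 and 64.0 on negative arrays, and 1422970_at read 502, 255 and 256 on positive arrays, against 310, 102 and 93.0 on negative arrays. On both, negative array 1 lay among the positive arrays, and the other negative arrays lay below. The log2 differences were 1.73 (SE 0.72, limma adjusted p = 0.224) and 1.16 (SE 0.53, limma adjusted p = 0.266). Without negative array 1 they were 2.59 (limma adjusted p = 0.0169) and 1.71 (0.0540). With the block, 1422970_at passed (limma adjusted p = 0.0467) and 1448878_at did not (0.0991).

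The same array stood apart in cell cycle genes. The mean log2 level of 11 S phase genes, centred on the 6 arrays, was 1.17, 0.96 and 0.85 on positive arrays 1, 2 and 3, against -0.08, -1.34 and -1.56 on negative arrays 1, 2 and 3. Negative array 1 was thus the highest of its group both in these genes and on the dimmer Mxd3 probe sets, and positive array 1 was the highest of its own in both. On the brightest Mxd3 probe set, 1438847_at, negative array 1 was instead the lowest of its group, at 451 against 512 and 514. For 11 quiescence genes the values were -0.16, -0.50 and -0.43 on positive arrays, against 0.44, 0.29 and 0.36 on negative arrays. The part of cell cycle state in the Mxd3 values was not tested.

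**Figure D3:**
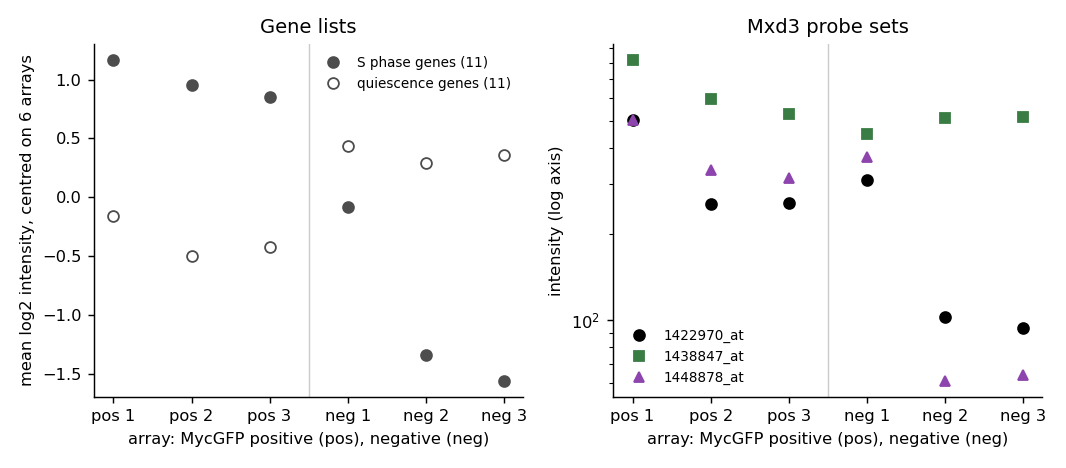
Left, mean log2 intensity of 11 S phase genes (filled) and 11 quiescence genes (open) on each array, centred on the 6 arrays; right, intensity (log axis) of the 3 Mxd3 probe sets on the same arrays, with MycGFP positive arrays left of negative ones. Negative array 1 lies above the other negative arrays in S phase genes, at -0.08, and on the Mxd3 probe sets 1448878_at and 1422970_at, at 373 and 310. On the brightest, 1438847_at, it lies below them, at 451.

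MAX, the partner of MYC and MXD proteins, had the steadiest values of the network by the brightest probe sets. Its single probe set read 3086, 3016 and 2903 on positive arrays, against 3052, 2976 and 3337 on negative arrays, a spread of 1.15-fold over all 6. The groups overlapped. The log2 difference was -0.06 with a 95% interval of -0.34 to 0.23 (limma adjusted p = 0.853). MLX, the parallel partner, read 323, 219 and 187 on positive arrays, against 222, 285 and 277 on negative arrays by its brighter probe set. Its interval was wider, at -0.71 to 0.44 around -0.14 (limma adjusted p = 0.812), and the second probe set had the opposite sign, 0.29 (limma adjusted p = 0.672). Both MLX probe sets were highest on positive array 1.

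Mycn, the MYC family member best known from neuroblastoma and early development, had a bright probe set in both groups. Probe set 1425923_at read 5937, 8328 and 10682 on positive arrays 1, 2 and 3, against 7968, 8275 and 13090 on negative arrays 1, 2 and 3, above 99.5% of all named probe sets by its mean. The values followed the array number in both groups, lowest on number 1 and highest on number 3, and the groups overlapped. The log2 difference was -0.24 with a 95% interval of -0.95 to 0.47 (limma adjusted p = 0.724). A second Mycn probe set read 97.9 to 120 on positive and 102 to 147 on negative arrays, and the third, 1417155_at, was above the array median on positive array 1 alone, at 31.8. The 3 probe sets of 1 gene thus had very different brightness, and which transcripts each detects was not examined. Mycl, the third family member, was under the array median by all 3 probe sets on all 6 arrays, the brightest reading 19.3 to 23.3 on positive and 21.6 to 22.6 on negative arrays.

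Myc is no member of the set, but its protein was the basis of the sort. It rose 2.58-fold in positive cells, with intensities of 2628, 3390 and 2274 on positive arrays, against 801, 1135 and 1303 on negative arrays (limma adjusted p = 0.0329). Within numbers 1, 2 and 3, Myc was 3.28-fold, 2.99-fold and 1.74-fold higher in positive cells.

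MNT, a widely expressed MAX partner that holds MYC targets in check, differed mostly through negative array 3. Its brighter probe set read 412, 587 and 342 on positive arrays 1, 2 and 3, against 397, 633 and 1026 on negative arrays 1, 2 and 3. The groups overlapped. For number 3 Mnt was 3.00-fold lower in positive cells, while numbers 1 and 2 differed by a log2 difference of 0.05 and -0.11. The log2 difference over all arrays was -0.55 with a 95% interval of -1.48 to 0.38 (limma adjusted p = 0.495). The other Mnt probe set lay under the array median on every array.

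MGA, a very large protein that joins MAX to a variant Polycomb repressor complex, was read by 5 probe sets that did not all point one way. The brightest, 1434746_at, read 1761, 3131 and 2436 on positive arrays, against 2228, 3304 and 3287 on negative arrays, with overlap and a log2 difference of -0.28 (95% interval -0.94 to 0.37, limma adjusted p = 0.631). Probe set 1442356_at read 71.5, 166 and 164 on positive arrays, against 171, 333 and 255 on negative arrays, without overlap. Its log2 difference was -0.97 (SE 0.41, limma adjusted p = 0.230), and 0.0495 was the adjusted p with the block. Probe set 1431232_a_at had a difference of 0.16, and the last pair lay near or under the array median. With the block, 6 of the 28 member probe sets were lower (3 of Mxd4, 2 of Mxd1 and 1 of Mga) and 1 of Mxd3 higher, against 2.58% lower and 5.41% higher over all probe sets. Positive arrays all lay below negative ones for 8 of the 28, against 12.0% of all probe sets, and all above for 1, against 16.6%. The 8 were of Mxd1, Mxd4, Mxi1 and Mga alone, and probe sets of the same gene are not separate observations of the network.

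**Figure D4:**
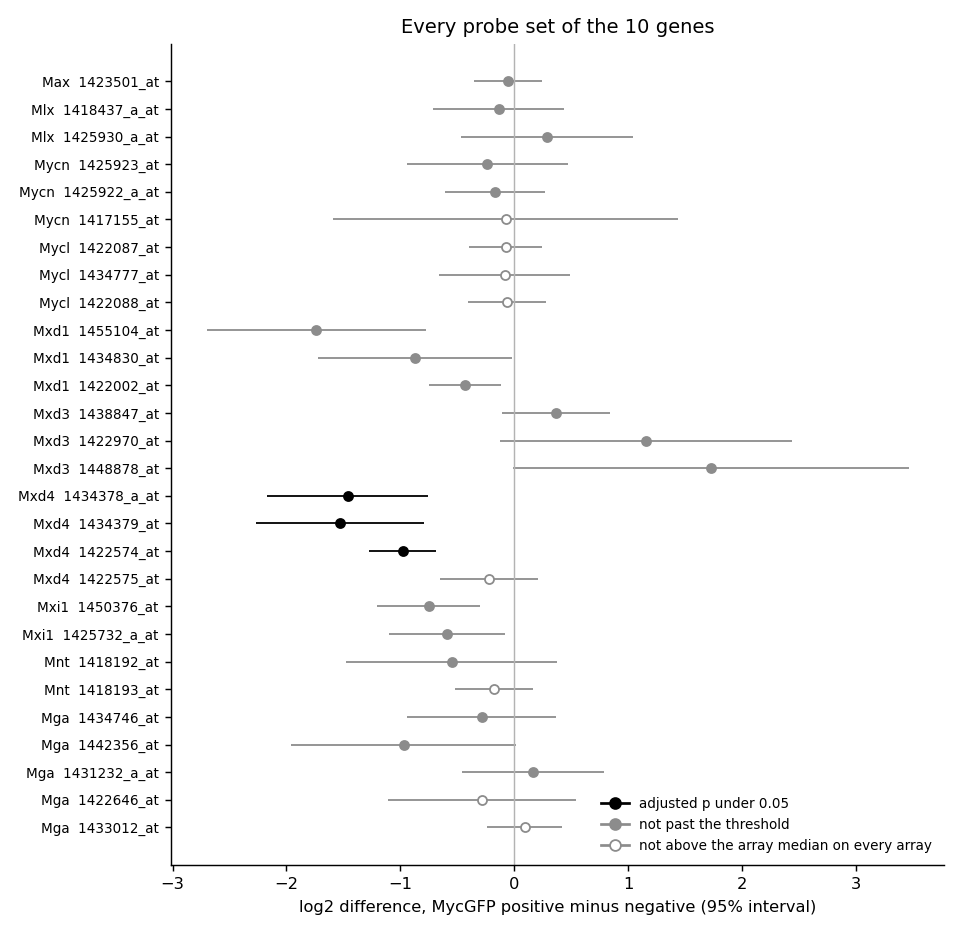
Log2 difference, MycGFP positive minus negative, of all 28 member probe sets with its 95% interval from limma; black marks an adjusted p under 0.05 over all named probe sets and open circles mark probe sets not above the array median on every array. The 3 black points are Mxd4 probe sets at -1.46, -1.53 and -0.98, and the 3 Mxd3 probe sets lie above 0.

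By the rule for likeness, the 3 genes closest to Mxd4 over the 6 arrays were Spen, Kifc2 and Phf21a, with Pearson r of 0.997, 0.996 and 0.995. Such values reflect the shared difference between the sorted groups as well as the arrays' own order, and are given as a description. SPEN and PHF21A are known as transcriptional co-repressors, and KIFC2 is a kinesin. Phf21a fell by 1.15 on the log2 scale (limma adjusted p = 0.0381), with intensities of 644, 1042 and 893 on positive arrays, against 1649, 2146 and 1844 on negative arrays. Spen had a log2 difference of -0.28 (limma adjusted p = 0.257) and Kifc2 one of -0.75 (0.0593, and 0.0464 with the block), and Kifc2 was read at 11.5 to 15.5 on positive and 20.7 to 24.9 on negative arrays, under the array median.

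Genes that work with the network were counted in 9 lists, with 85 of 92 different genes measured. In the test over all genes (limma), 21 of the 85 rose and 5 fell, and the median log2 difference was 0.35. Over all genes 4.62% were called higher and 1.51% lower, the shares against which the count of each list is to be read. With the array number as a block 25 rose and 9 fell. In that fit 1047 of all 18193 genes were called higher and 354 lower, 7.70% in either direction. The blocked count of each list is to be read against these. Without positive array 2 no gene on the arrays passed, and 50 of the 85, against 17.5% of all genes, had an unadjusted p under 0.05 in limma. Of the MONDO partners of MLX, Mlxip was read at 199 to 346 on positive and 226 to 259 on negative arrays, and Mlxipl, better known from liver, lay under the array median throughout. Txnip, the best known target of MONDO and MLX and a brake on glucose uptake, fell by 1.34 on the log2 scale (limma adjusted p = 0.0441). It read 2099, 4013 and 3672 on positive arrays, against 7365, 8893 and 7621 on negative arrays, without overlap. Arrdc4, the second gene of that list, lay under the array median on every array.

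Of 15 measured co-activators of MYC, 4 rose and none fell, with a median of 0.08, against 4.62% of all genes higher. Those that rose were Ruvbl1 and Ruvbl2, the ATPases that serve the TIP60 and INO80 complexes, Actl6a, an actin-like subunit of several chromatin remodellers, and Wdr5, which anchors MYC and MLL complexes on chromatin. Their log2 differences were 0.88, 1.02, 1.10 and 0.74 (limma adjusted p = 0.0261, 0.0310, 0.0200 and 0.0349). With the block 4 rose and 2 fell: Wdr5 missed the threshold (limma adjusted p = 0.0550), while Kat2a, an acetyltransferase, passed at a log2 difference of 1.47 (0.0348), as did Ep400 and Bptf, subunits of chromatin remodellers, at -0.74 (0.0492) and -0.88 (0.0433). Trrap, the scaffold that MYC binds directly, read 389, 345 and 252 on positive arrays, against 326, 438 and 462 on negative arrays, and the groups overlapped.

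Of 15 measured co-repressors that MXD proteins and MNT recruit, 1 rose, Sinhcaf, a subunit of the SIN3 complex, at a log2 difference of 0.68 (limma adjusted p = 0.0444, and 0.0785 with the block), and none fell, at a median of 0.21. A count of 1 in 15 is near the 4.62% of all genes called higher, and so is no result about the co-repressors. The scaffold Sin3a read 589, 547 and 461 on positive arrays, against 460, 482 and 518 on negative arrays, with overlap. With the block 2 of the 15 rose, where 1047 of all 18193 genes were higher. They were Sap30 and Rbbp7, subunits of the SIN3 complex, at log2 differences of 1.75 and 0.91 (limma adjusted p = 0.0347 and 0.0488). Sin3b, the second scaffold, read 2102 to 2948 on positive and 2262 to 3162 on negative arrays.

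Among 12 measured genes of the Polycomb complex that holds MGA, 2 rose and none fell, at a median of 0.42, against 4.62% of all genes higher. E2f6, the DNA-binding subunit that works beside MGA and MAX and represses E2F sites, rose most of the 12. It read 257, 347 and 239 on positive arrays, against 61.2, 49.1 and 62.4 on negative arrays, a 4.84-fold rise (log2 difference 2.28, SE 0.19, limma adjusted p = 0.0103). The other was Wdr5, shared with the co-activators, which missed the threshold with the block, so that 1 of the 12 rose there. The subunit genes L3mbtl2 and Pcgf6 lay higher on every positive than on every negative array, at log2 differences of 0.61 and 1.20, and missed the threshold (limma adjusted p = 0.0750 and 0.0751).

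Of 12 E-box genes described as targets shared by MYC and MXD proteins, 7 rose and none fell, against 4.62% of all genes higher, and the median was 1.16. Srm and Odc1, enzymes of polyamine synthesis, Cad, which starts pyrimidine synthesis, and the cyclin-dependent kinase gene Cdk4 rose by log2 differences of 2.48, 2.54, 2.36 and 1.20 (limma adjusted p = 0.0103, 0.0152, 0.0116 and 0.0120). Odc1 read 1321, 1184 and 986 on positive arrays, against 287, 204 and 134 on negative arrays. Ccnd2 and Tert, on the same list, had values of 20.3 to 227 and 10.6 to 14.6 on positive arrays, against 55.5 to 64.9 and 12.4 to 43.7 on negative arrays, and did not pass.

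Of 7 measured regulators of the turnover or binding of MYC, 1 rose and none fell, with a median of 0.56, where 4.62% of all genes were higher. With 7 genes, 1 call is too few to be read as a result about these regulators. The gene called was Skp2, part of a ubiquitin ligase for p27 and MYC, at a log2 difference of 2.23 (limma adjusted p = 0.0103). Fbxw7, the ligase subunit that marks MYC and NOTCH1 for destruction, read 1454, 2160 and 3011 on positive arrays, against 3300, 4714 and 5193 on negative arrays (limma adjusted p = 0.117). It fell by 1.03 on the log2 scale with the block (limma adjusted p = 0.0369), where Skp2 and the kinase gene Aurka, at 2.39 (0.0300), rose. Of 11 S phase genes, 6 rose, at a median of 2.16, against 4.62% of all genes higher. Among them were the helicase genes Mcm5 and Mcm6, the S phase regulator E2f1 and the origin licensing gene Cdc6, with log2 differences of 2.40, 2.56, 2.37 and 4.12 (limma adjusted p = 0.0222, 0.0162, 0.0162 and 0.0280). Of 11 quiescence genes, 4 fell, at a median of -0.82, against 1.51% of all genes lower. These were Foxo1, Foxp1, Btg1 and Slfn2, with log2 differences of -1.26, -0.69, -0.82 and -1.11 (limma adjusted p = 0.0195, 0.0462, 0.0260 and 0.0310). Foxp1 missed the threshold with the block (limma adjusted p = 0.0554). These lists were chosen with results of the same arrays known, so their counts are no independent evidence of a direction.

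**Figure D5:**
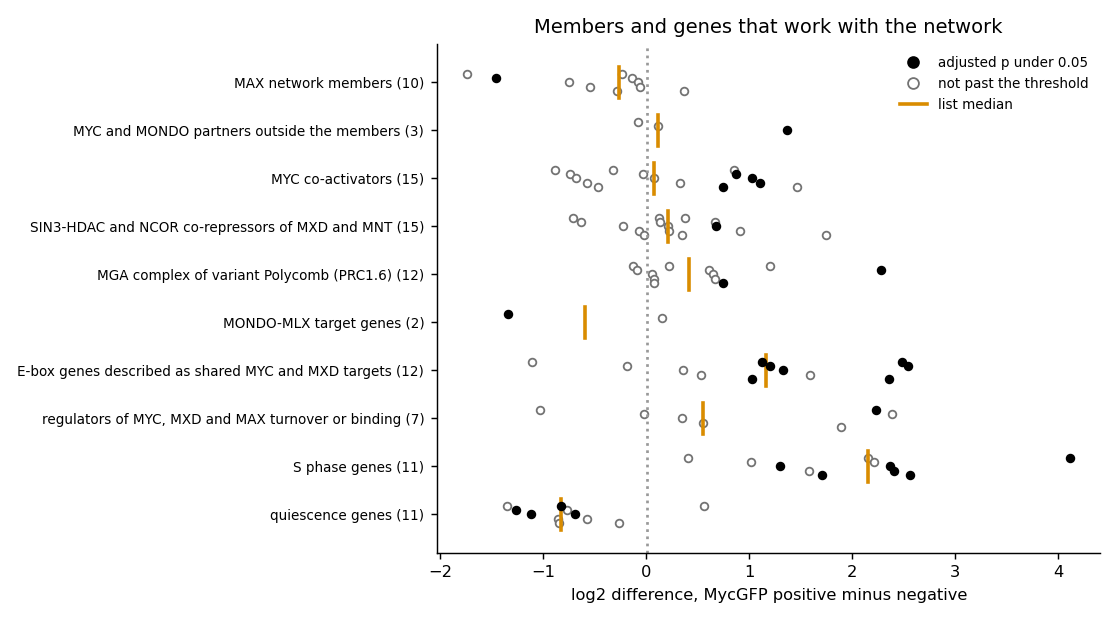
Log2 difference, MycGFP positive minus negative, of the 10 members and of the measured genes of 9 lists (number in brackets); filled points passed an adjusted p under 0.05 over all genes, orange bars are list medians and the dotted line is the median of all genes, 0.01. The member median lies at -0.26, those of E-box targets and S phase genes at 1.16 and 2.16 and that of quiescence genes at -0.82.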

How the data were processed

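RNA of 6 sorted samples, 5 ng each, was amplified before labelling, per the labels' protocols. The authors deposited 1 intensity for each probe set, and the submitters' processing notes name RMA. For its version, and for a genome build, nothing is given in the sources used here. Deposited intensities were on a linear scale (array minima 2.89 to 3.20), so log2 was taken first. Gene symbols came from the platform annotation, with 34741 of 34945 symbols matched by Entrez identifier to RefSeq GRCm38.p6; 932 probe sets with several symbols, 9160 with none and 64 controls were left out.

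Groups came from the titles. Genes, each by its brightest probe set, and then all named probe sets were fitted in limma 3.58.1 under R 4.3.3 (2 groups, two-sided, 4 residual and 2.17 prior degrees of freedom), with Benjamini-Hochberg adjustment over all features and a threshold of 0.05. The limma code was tested on simulated data. Intervals of 95% use limma's moderated spread, and only the number of arrays sets the precision. Each p-value measures only spread between these samples, which no label ties to separate mice beyond the 3 leukaemias of the design.

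Arrays of the same number deviated together from their group means, with r = 0.38, 0.21 and 0.39 over genes, against -0.32 to -0.03 for different numbers. Deviations from a group mean cancel out within the group. Positive values for the same number therefore force negative ones for different numbers, which are no separate evidence of pairing. Arrays of the same number were therefore taken as pairs in the blocked fit, though no label states that a number marks a leukaemia. Results of the blocked fit are given where they change a call, and for some genes and probe sets where they do not. All other standard errors, intervals, p-values and counts come from the fit without the block, which ignores any pairing.

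Named genes were all members, Myc, up to 4 called genes of each list with the smallest adjusted p, and the 3 genes most like a called member by Pearson r. Others were picked after their values were seen: Mlxip, Mlxipl, Arrdc4, Trrap, Sin3a, Sin3b, L3mbtl2, Pcgf6, Ccnd2, Tert, Fbxw7, Pecam1 and the genes that passed only with the block. The same holds for the markers Col1a1, Col3a1, Cdh5, Csf1r, Itgam, Cd79a, Ms4a1, Ebf1 and Pax5. The members and lists were chosen with earlier results of these data known. Alternatives covered the block, left-out arrays, probe set choice, cross-hybridising probe sets, centring, a pseudocount of 16, a filter on low levels, the variance prior and array weights.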

Additional observations from a re-analysis of the deposited data

How the results depend on the processing

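The sign of the members' differences was steadier than their calls. Of the 10 members, 9 were below 0, and 8 to 9 when any 1 array was left out. Over all 18193 genes, 8801 were below 0 with all arrays. Some of the 9 lay near 0, with Max, Mycl and Mlx at -0.06, -0.07 and -0.14. The number of called members, 1, became 2 with the block (Mxd1 and Mxd4), 2 with probe sets averaged (Mxd4 and Mxi1), 2 with a filter on low levels, 3 with array weights and 0 with log2(intensity + 16), where 3 passed an unadjusted p under 0.05 in limma. Over all 18193 genes, 1047 were higher and 354 lower with the block, and 1017 and 393 with probe sets averaged. Array weights gave 1069 and 349, and log2(intensity + 16) gave 796 and 264. The filter kept 9097 genes, without Mycl, of which 1022 were higher and 328 lower. Of the member probe sets, 3 were called, and 7 with the block, 5 with array weights and 1 with log2(intensity + 16). Beyond the calls given above with the block, it added Rcc1, Tyms, Btg2 and Cdkn2d among the list genes and changed no other call of a member or list gene. Leaving out 1 array gave 0 to 1 member genes, 0 to 3 member probe sets and 0 to 26 of the 85 list genes, against 26 with all arrays. Without positive array 2 no gene of the whole array was called, and 3 members and 50 list genes had an unadjusted p under 0.05. Leaving out both arrays of 1 number, an alternative chosen after seeing the data, gave 0 member genes for each number, at 4, 3 and 3 with an unadjusted p under 0.05. It gave 3 member probe sets without number 1 (Mxd3 1448878_at and 1422970_at and Mxd4 1434379_at, limma adjusted p = 0.0447, 0.0477 and 0.0477), 0 without number 2 or 3 (5 and 6 unadjusted) and 13, 0 and 0 list genes, the last 2 with 37 and 44 unadjusted, where 13.7% and 17.5% of all genes were. The sign turned for members with differences near 0: Max gave 0.018 without number 3 and Mycl 0.0029 without number 2. Mlx gave 0.077 with probe sets averaged, 0.080 without number 3 and -0.36 to 0.034 without 1 array. Centring each array on its median moved the median of all genes from 0.01 to -0.14 and gave 502 higher and 381 lower genes, against 840 and 275; Mxd4 then had a log2 difference of -1.61 and Mxd3 one of 0.22. The cause of these changes was not tested. No detection calls were used, so levels near the array median may be background.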
